A study of Mus musculus with 9 samples.

Results

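The genes described here are 41 members of the heat shock and unfolded protein responses, chosen by symbol from the 54513 genes listed in the deposited table. They fall into 25 genes that act in or signal from the endoplasmic reticulum (ER), and 16 cytosolic, nuclear or mitochondrial chaperones and their regulators. The study measured messenger RNA in hippocampal tissue of mice fed a high-fat diet for 12 weeks, with 3 mice in each of 3 groups. Trp mice had tryptophan added to the diet at 0.5% by weight, IPA mice (labelled HFD_IPA) received 100 mg/kg of IPA in saline by gavage each day, and HFD mice had the high-fat diet as their only labelled treatment. All 3 groups therefore share the high-fat diet, and no mice on standard chow were included. The design text does not say whether HFD or Trp mice were gavaged with saline. Of strain, sex and age the labels say nothing, and the table's column codes for the groups are not explained beyond their pairing with the sample titles.

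The unfolded protein response is switched on when unfolded proteins build up in the ER. Its sensors ATF6, IRE1 (Ern1) and PERK (Eif2ak3) act through cleaved ATF6, spliced XBP1 and the translation of ATF4, which raise ER chaperones, folding enzymes and degradation factors, while prolonged signalling induces CHOP (Ddit3). The heat shock response works in the cytosol and nucleus, where the factor HSF1 raises HSP70, HSP90, J-domain and small heat shock proteins. Neurons depend on both systems, and Hspa8 and the HSP90 genes are abundant in brain without any added stress.

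Promoter sequences are shown for members whose window holds the response element of its pathway before the start, because they show which genes carry the letters that link the list to its factors. The matches in Dnajb11, Hsph1 and Chordc1 lay at or after the start and are not shown. Of the members, 33 had a RefSeq promoter window on GRCm38.p6, from 250 bases before to 50 bases after the annotated start. The ER stress response element, searched on both strands as CCAAT followed, after any 9 bases, by CCACG, was found in 7 of the 22 ER members with a window (31.8%), in 0 of the 11 other members and in 37 of all 27025 genes with a window (0.137%). Capitals mark the element, with 20 bases on each side, written on the gene's strand. The windows are chr2:34772005-34772063 (+) for Hspa5, chr10:86705618-86705676 (−) and chr10:86705513-86705571 (−) for the upstream and downstream elements of Hsp90b1, chr8:84847055-84847113 (−) for Calr, chr11:50325780-50325838 (−) for Canx, chr12:17266471-17266529 (+) for Pdia6, chr14:118937807-118937865 (+) for Dnajc3 and chr15:88819500-88819558 (+) for Creld2. In Calr, Creld2 and the downstream site of Hsp90b1 the element runs on the other strand, so that CGTGG comes first and ATTGG last.
Hspa5: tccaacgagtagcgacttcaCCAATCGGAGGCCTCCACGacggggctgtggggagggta
Hsp90b1 upstream: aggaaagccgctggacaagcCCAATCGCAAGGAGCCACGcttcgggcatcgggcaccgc
Hsp90b1 downstream: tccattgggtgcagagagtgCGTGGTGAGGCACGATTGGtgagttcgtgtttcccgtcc
Calr: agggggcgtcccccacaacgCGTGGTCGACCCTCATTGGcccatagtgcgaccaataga
Canx: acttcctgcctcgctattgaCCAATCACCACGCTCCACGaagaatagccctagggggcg
Pdia6: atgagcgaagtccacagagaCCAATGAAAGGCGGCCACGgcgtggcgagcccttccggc
Dnajc3: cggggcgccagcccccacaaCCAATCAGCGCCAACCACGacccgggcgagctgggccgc
Creld2: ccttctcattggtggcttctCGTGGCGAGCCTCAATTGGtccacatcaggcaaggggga

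The element lay between -65 and -47 bases from the start in Hspa5 and between -212 and -194 in the upstream copy of Hsp90b1, the nearest and the farthest of these sites. A shorter ER element, ATTGG and CCACG separated by any 1 base, was found in Herpud1 and Dnajb11, which are 9.09% of the ER windows, against 12 of all 27025 (0.0444%). The Herpud1 site lay at chr8:94386357-94386407 (+), between -52 and -42. The heat shock element, searched as GAA, TTC and GAA with any 2 bases between neighbours, was found in 0 of 22 ER windows, in 4 of 11 windows of the other members (36.4%: Hsph1, Hspd1, Hspe1 and Chordc1) and in 179 of all windows (0.662%). Hspd1 and Hspe1, the mitochondrial chaperonin and its cochaperonin, share 1 promoter between divergent starts, and the element in it is shown on the Hspd1 strand at chr1:55088039-55088091 (−). A second match on the opposite strand overlaps it. The composite element TTGCATCA, which C/EBP and ATF factors bind, was found in Herpud1 alone of the members and in 279 of all windows (1.03%). A match describes letters in the reference and is no measurement of binding.
Herpud1: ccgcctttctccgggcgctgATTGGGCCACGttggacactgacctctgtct
Hspd1: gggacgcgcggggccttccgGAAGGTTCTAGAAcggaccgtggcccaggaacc

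Per gene length, in the authors' FPKM (a level adjusted for gene length and sequencing depth), cytosolic chaperones were the most abundant members. Averaged over the 9 libraries, Hspa8, the constitutive cytosolic HSP70, had 793 FPKM, and the HSP90 genes Hsp90ab1 and Hsp90aa1 had 421 and 413 FPKM. The ER chaperones followed, with Calr at 132 FPKM, Hsp90b1 at 128 FPKM and Hspa5 at 93.3 FPKM. The small heat shock protein gene Cryab stood among them at 129 FPKM. The stress-inducible HSP70 genes Hspa1a and Hspa1b were low, at 2.65 and 2.34 FPKM. The least abundant members were the sensor Ern1, at 0.55 FPKM, and Trib3, a pseudokinase gene induced by ATF4 and CHOP, at 0.31 FPKM. The ranges of many neighbours in this order overlapped, Calr, Cryab and Hsp90b1 among them.

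**Figure D1:**
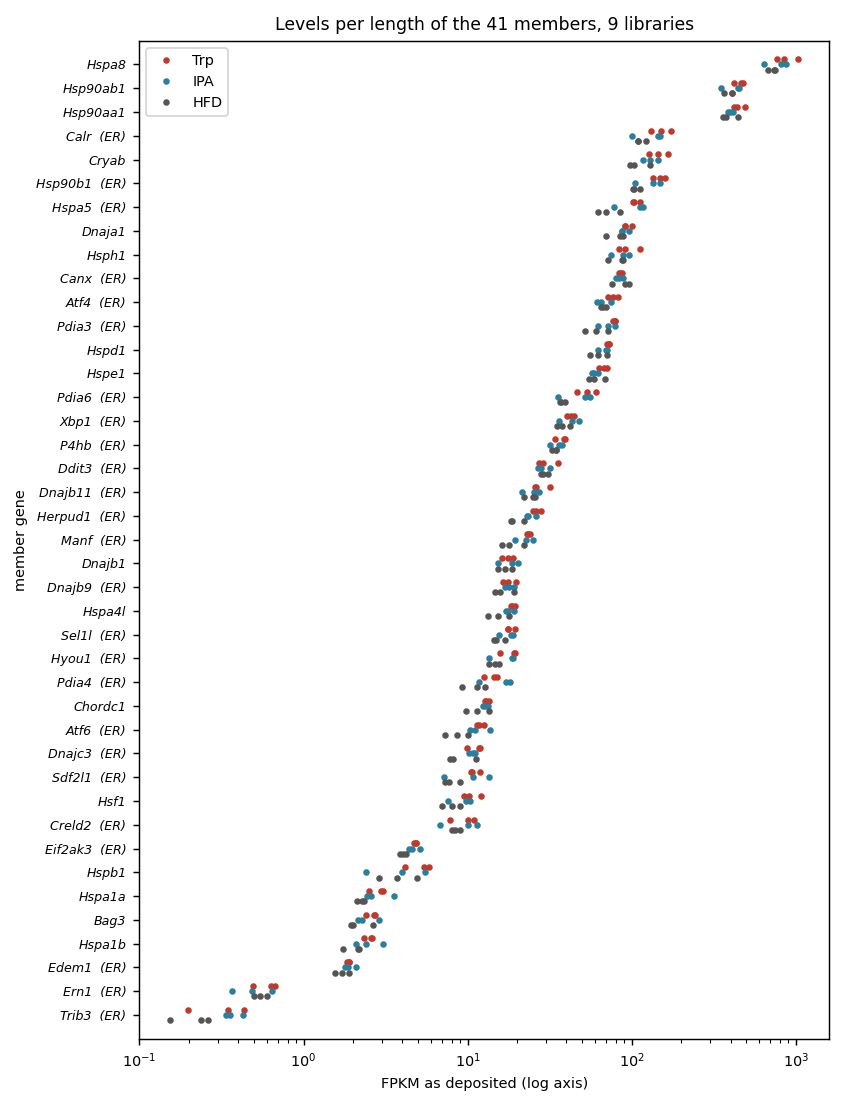
Deposited FPKM of each of the 41 members in each of the 9 libraries on a log axis, ordered by the mean of the 9 libraries, with Trp, IPA and HFD libraries in colour and ER members marked. Hspa8 stands at the top with a mean of 793 FPKM and Trib3 at the bottom with 0.31 FPKM. On this scale the Trp and HFD values overlap for some genes and are separate for others.

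Summed over the 25 ER members, the level was 944, 1018 and 1059 FPKM in Trp hippocampi, 791, 989 and 1007 FPKM in IPA hippocampi and 747, 819 and 855 FPKM in HFD hippocampi. The Trp values all lay above the HFD values, whereas IPA 1 lay among them. Over the 16 cytosolic and mitochondrial members the sums were 2136, 2273 and 2594 FPKM in Trp, 1831, 2244 and 2195 FPKM in IPA and 1856, 1976 and 2062 FPKM in HFD. Here too the Trp sums in FPKM stood above every HFD sum, and Hspa8 is the largest contributor. That order rests on the FPKM scale. On counts scaled to library size (CPM), 5 of these 16 members (31.2%) had every Trp value above every HFD value. Of all genes tested, 8.06% did. The sums on CPM are not given here. In bulk tissue, a change in RNA per cell and a change in the number of cells of a type cannot be told apart.

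Tested gene by gene, no member passed in either comparison with HFD, yet nearly all members were higher on average in both supplemented groups. The members were chosen with earlier results of these data known, and the counts of higher means were added after seeing the data. Shares of members set beside shares of all genes, here and below, are therefore descriptions and no test. Counts were scaled to library size as CPM and tested with edgeR's quasi-likelihood test, with p adjusted by Benjamini-Hochberg over the 18690 genes tested and a threshold of 0.05. All 41 members were among those genes. In Trp against HFD, 0 of 41 members passed, where 64 of all genes (0.342%) did, and the smallest adjusted p of a member was 0.217, for Hsp90b1. In IPA against HFD, 0 of 41 passed, where 1 of all genes (0.00535%) did, and the smallest adjusted p was 0.296, for Atf6. At an unadjusted p under 0.05, 10 of 41 members (24.4%) were higher in each comparison and none lower, against 5.76% of all genes for higher values in Trp (11.3% in either direction) and 4.95% in IPA (10.4% in either direction). These counts depended on single libraries. In Trp the count was 6 without HFD 1 and without Trp 3, and 15 without HFD 3. Over all genes, in the same order, 1743 of 19072, 2277 of 19101 and 2799 of 19120 were past that p. In IPA the member count was 5 without HFD 1, 6 without HFD 2 and without IPA 3, and 3 without IPA 2. It was 18 without IPA 1 and without HFD 3. Over all genes in IPA, 1287 of 19072 were past that p without HFD 1 and 2165 of 19107 without HFD 2. For the fits without IPA 1, IPA 2, IPA 3 or HFD 3 the count over all genes is not given here. The member counts of 3 and 18 therefore have no background beside them and are not read as particular to the members. On log2(FPKM + 0.5), 17 of 39 members tested were past that p in Trp and 5 of 39 in IPA. On that scale 1990 of 13518 genes were past it in Trp and 1347 of 13518 in IPA, in either direction. Since HFD libraries are the reference of both comparisons, the counts are not independent of each other.

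In Trp against HFD, 23 of 25 ER members and 15 of 16 cytosolic and mitochondrial members had a higher mean, where 49.5% of all genes did. The median log2 fold change was 0.22 over the ER members and 0.16 over the others, against -0.00 over all genes tested. The members with a lower mean were Canx, Ddit3 and Dnajb1. All 3 Trp values stood above all 3 HFD values for 13 of 41 members (31.7%), against 8.06% of all genes, and no member showed the opposite, as 7.43% of all genes did. In IPA against HFD, 22 of 25 ER members and 15 of 16 others had a higher mean, where 48.9% of all genes did, with medians of 0.22 and 0.11 against -0.01. There 5 of 41 members (12.2%) had groups without overlap, against 7.19% of all genes, and they were Herpud1, Atf6, Eif2ak3, Trib3 and Hspa1a. No member stood below HFD without overlap, as 8.01% of all genes did. No test of the difference between the ER and the cytosolic class was made.

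**Figure D2:**
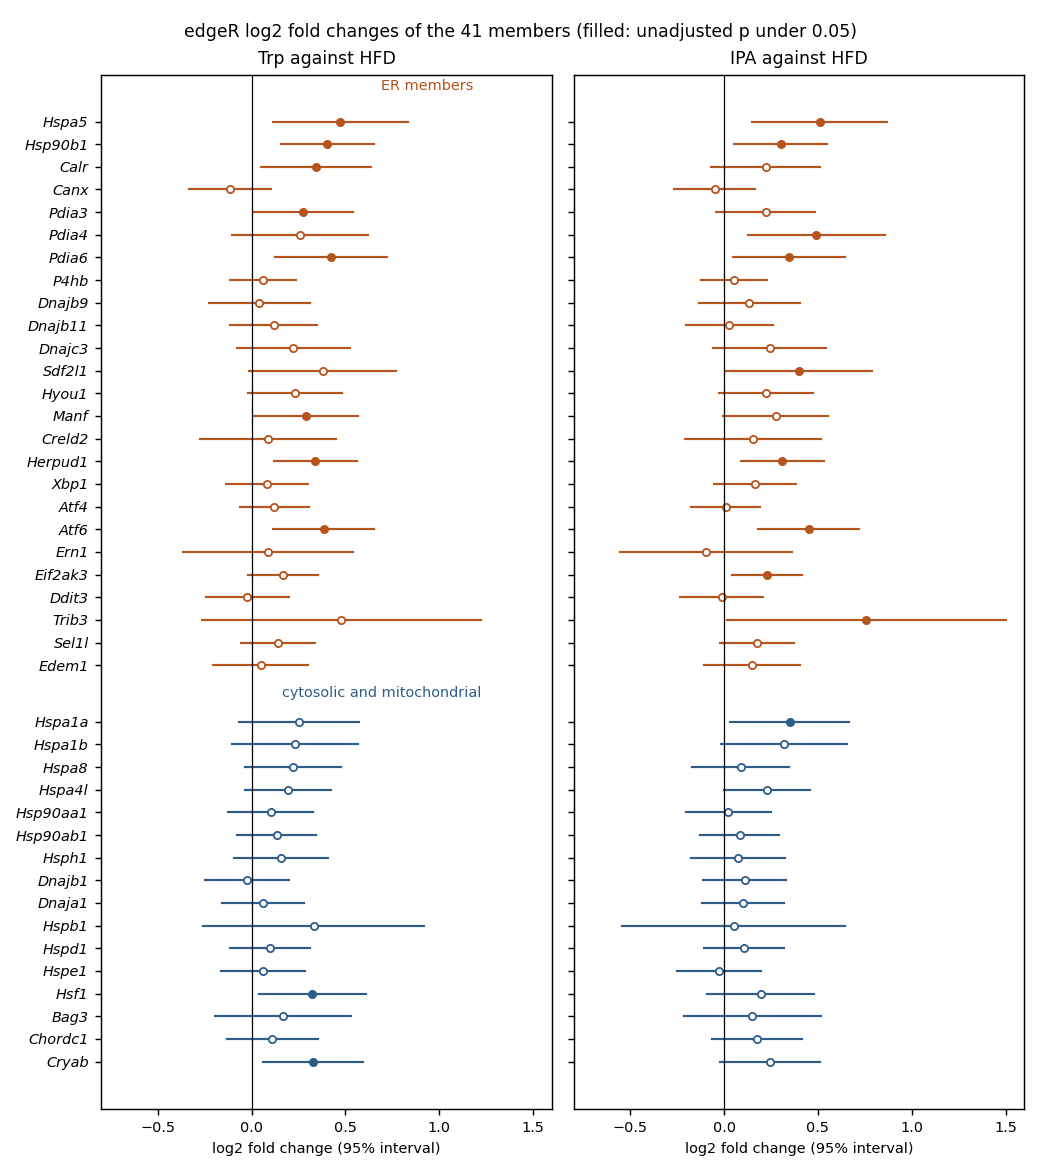
Log2 fold changes of the 41 members in Trp against HFD (left) and IPA against HFD (right) from edgeR, with 95% intervals; filled points have an unadjusted p under 0.05, and no member passed after adjustment. Points lie to the right of 0 for 38 of 41 members in Trp and 37 of 41 in IPA.

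The ER chaperones that bind unfolded chains were among the members with the smallest p. Hspa5, the HSP70 of the ER (BiP) that also holds the sensors inactive, had 336, 335 and 307 CPM in Trp hippocampi, 256, 362 and 385 CPM in IPA hippocampi and 197, 219.8 and 288 CPM in HFD hippocampi. All Trp values lay above all HFD values, while IPA 1 lay below HFD 3. Its log2 fold change was 0.47 in Trp against HFD (SE 0.16, 95% interval 0.11 to 0.83, adjusted p = 0.31) and 0.51 in IPA against HFD (SE 0.16, 95% interval 0.15 to 0.87, adjusted p = 0.349). Hsp90b1, the HSP90 of the ER (GRP94), had 419, 444 and 472 CPM in Trp, 342, 419.9 and 480.3 CPM in IPA and 325, 320.3 and 363 CPM in HFD. The Trp and HFD libraries were again separate, and IPA 1 fell inside the HFD range. The log2 fold change of Hsp90b1 was 0.40 in Trp (SE 0.12, 95% interval 0.15 to 0.65, adjusted p = 0.217) and 0.30 in IPA (SE 0.12, adjusted p = 0.419). With DESeq2 the adjusted p of Hsp90b1 in Trp was 0.0496, which passes the threshold. In the authors' deposited table, Hsp90b1 had a log2 fold change of 0.40 with q = 0.00698 and Pdia6 one of 0.42 with q = 0.0202 in Trp against HFD. They were 2 of the 40 members given a q in the authors' deposited table, where 234 of 15337 genes (1.53%) had q under 0.05; Trib3 had none. In the authors' deposited table Hspa5 had q = 0.061 in that comparison. For IPA against HFD, 0 of 40 members had q under 0.05 in the authors' deposited table, where 189 of 15236 genes (1.24%) did, and Atf6 had the smallest, 0.104.

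The lectin chaperones Calr and Canx, which fold glycoproteins side by side, did not share a direction. Calr had 316, 343 and 395 CPM in Trp, 251, 348 and 370.3 CPM in IPA and 265, 294 and 272 CPM in HFD. Its Trp values stood clear of HFD, with a log2 fold change of 0.34 (SE 0.13, adjusted p = 0.355), and its IPA values overlapped them. Canx, the membrane-bound partner, had 357, 344 and 351 CPM in Trp, 395, 341 and 365 CPM in IPA and 327, 388 and 424 CPM in HFD. The 3 Canx groups overlapped throughout, and its Trp libraries lay within a narrow band inside the HFD range.

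Among the protein disulfide isomerases, which form and rearrange disulfide bonds, Pdia6 had the smallest p in Trp and Pdia4 in IPA. Pdia6 had 109, 120.5 and 135 CPM in Trp, 88.3, 122 and 135 CPM in IPA and 88.2, 87.7 and 96.2 CPM in HFD. The Trp values stood apart from HFD, and IPA 1 sat at the HFD level. For Pdia6 the log2 fold change was 0.42 in Trp (SE 0.14, adjusted p = 0.272) and 0.34 in IPA (SE 0.14, adjusted p = 0.438). Pdia4 had 40.2, 36.4 and 31.3 CPM in Trp, 32.5, 47.9 and 46.6 CPM in IPA and 24.8, 30.3 and 35.2 CPM in HFD, and all groups overlapped. Its log2 fold change in IPA was 0.49 (SE 0.17, adjusted p = 0.369). Pdia3, the isomerase that works with Calr and Canx, had 241, 224 and 229 CPM in Trp, 199, 219 and 249.5 CPM in IPA and 160.1, 185 and 227 CPM in HFD, with a log2 fold change of 0.28 in Trp (SE 0.12, adjusted p = 0.421). HFD 3 lay above Trp 2 for Pdia3. P4hb, the founding isomerase of the family, had nearly equal levels, from 105 to 119 CPM over the 9 libraries.

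The cochaperones and small ER proteins varied less evenly. Sdf2l1, a small ER protein of the chaperone complex, had 12.8, 13.9 and 12.3 CPM in Trp, 9.26, 16.5 and 13.7 CPM in IPA and 9.06, 9.52 and 11.4 CPM in HFD, so that only the Trp libraries stood clear of HFD. Its log2 fold change in IPA was 0.40 (SE 0.18, adjusted p = 0.477). Manf, a secreted ER protein that supports neurons, had 55.4, 54.2 and 51.9 CPM in Trp, 47.2, 53.5 and 59.4 CPM in IPA and 36.7, 42.2 and 53.4 CPM in HFD, with a log2 fold change of 0.29 in Trp (SE 0.13, adjusted p = 0.424). HFD 3 lay inside the range of both other groups for Manf. The J-domain cochaperones of Hspa5 overlapped between all groups. Dnajc3, which also restrains PERK, had 52.9 to 67.7 CPM in Trp, 60.7 to 63.3 CPM in IPA and 45.2 to 65.9 CPM in HFD. Dnajb9 ranged from 40.2 to 54.4 CPM and Dnajb11 from 47.7 to 63.9 CPM over the 9 libraries. Hyou1, the large HSP70-like exchange factor of the ER, had 76.0 to 88.9 CPM in Trp, 68.6 to 91.8 CPM in IPA and 67.8 to 76.0 CPM in HFD, and Creld2, an ER stress-induced isomerase-like gene, had 10.7 to 17.7 CPM with full overlap.

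**Figure D3:**
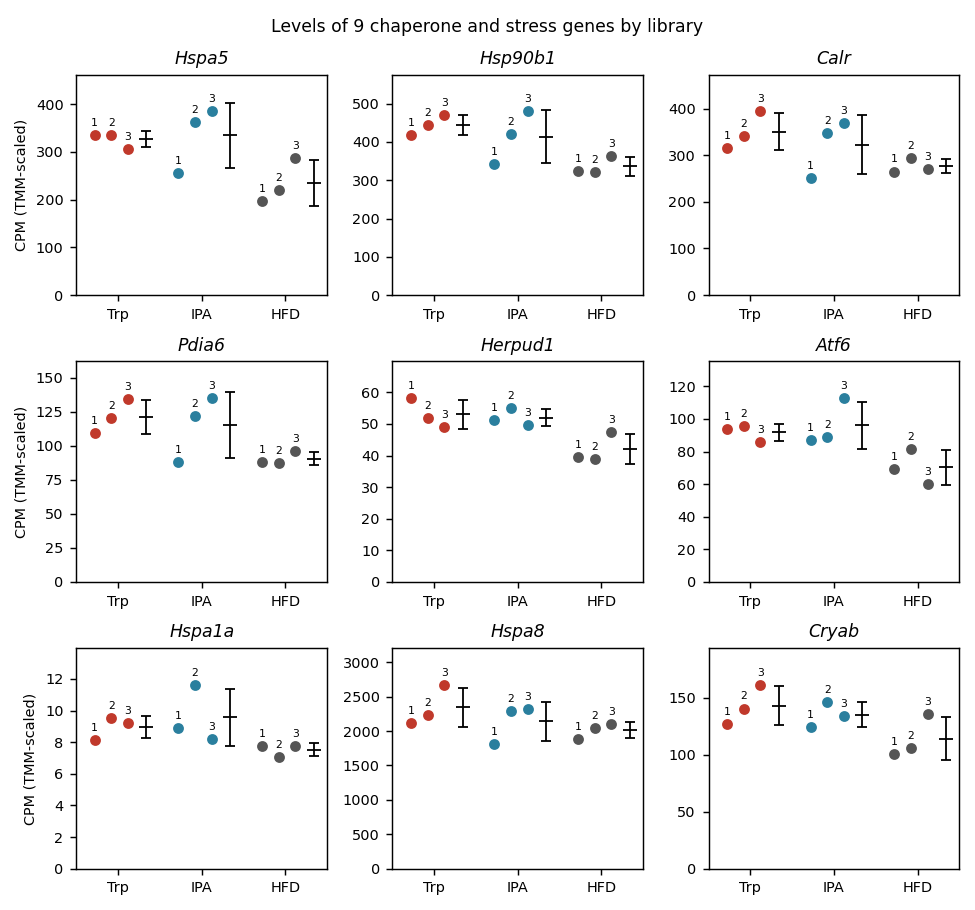
TMM-scaled CPM of 9 members in the 3 Trp, 3 IPA and 3 HFD libraries, with the replicate number above each point and the mean with its SD (n = 3) to the right of each group. IPA 1 lies low among the IPA libraries for Hspa5, Hsp90b1, Calr, Pdia6 and Hspa8, and HFD 3 is the highest HFD library for Hspa5, Hsp90b1, Herpud1 and Cryab.

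Of the sensors, Atf6 and Eif2ak3 had separate groups and Ern1 did not. Atf6, the sensor that is cleaved into a transcription factor, had 94.1, 95.7 and 85.7 CPM in Trp, 86.9, 89.0 and 113 CPM in IPA and 69.5, 81.4 and 60.2 CPM in HFD. Every Trp and every IPA value exceeded every HFD value, and IPA 3 was the highest. Its log2 fold change was 0.38 in Trp (SE 0.12, adjusted p = 0.268) and 0.45 in IPA (SE 0.12, adjusted p = 0.296). Eif2ak3, the PERK kinase, had 23.3, 22.9 and 22.6 CPM in Trp, 23.0, 25.2 and 23.5 CPM in IPA and 20.4, 20.9 and 20 CPM in HFD. Both supplemented groups stood above HFD, and this gene had the smallest spread of any member, an SD of 0.046 on the log2 scale within groups, against a median of 0.19 over all genes tested. The log2 fold change of Eif2ak3 in IPA was 0.23 (SE 0.09, 95% interval 0.04 to 0.42, adjusted p = 0.412). Ern1, the kinase and RNase that splices Xbp1, ranged from 3.59 to 5.12 CPM in Trp, 2.93 to 4.93 CPM in IPA and 3.77 to 4.58 CPM in HFD.

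The transcription factors downstream of the sensors were close to HFD levels. Xbp1, whose spliced form switches on ER genes, had 93.3, 98.9 and 91.8 CPM in Trp, 87.4, 111 and 103 CPM in IPA and 81.2, 97.2 and 89.6 CPM in HFD, and gene counts do not separate the spliced from the unspliced form. Its log2 fold change was 0.08 in Trp (95% interval -0.13 to 0.30, adjusted p = 0.818) and 0.17 in IPA (95% interval -0.05 to 0.38, adjusted p = 0.582). Atf4, controlled mainly through its translation, had 137, 140.4 and 149.6 CPM in Trp, 124, 144 and 128 CPM in IPA and 126, 129 and 138 CPM in HFD, with log2 fold changes of 0.12 in Trp (95% interval -0.06 to 0.30, adjusted p = 0.646) and 0.01 in IPA (95% interval -0.17 to 0.19, adjusted p = 0.979). All 3 groups overlapped for both factors.

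Ddit3, which encodes the death-associated factor CHOP, had 26.7, 26.9 and 32.8 CPM in Trp, 27.6, 31.0 and 28.2 CPM in IPA and 28.1, 30.5 and 29.0 CPM in HFD. Its log2 fold change was -0.02 in Trp (95% interval -0.24 to 0.20, adjusted p = 0.967) and -0.01 in IPA (95% interval -0.23 to 0.21, adjusted p = 0.976), and the Trp value was 0.05 on the FPKM scale. The upper ends of these intervals lie below the fold changes of Hspa5, and the difference between the genes was not tested. Trib3 had 0.468, 0.742 and 0.927 CPM in Trp, 0.826, 0.962 and 0.804 CPM in IPA and 0.600, 0.545 and 0.380 CPM in HFD, from 16 to 46 counts per library. All IPA values lay above all HFD values, with a log2 fold change of 0.76 (SE 0.34, 95% interval 0.01 to 1.5, adjusted p = 0.477), the widest interval of the ER members.

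Of the ER-associated degradation genes, Herpud1 alone had groups without overlap, and it had them in both comparisons. Herpud1, a membrane protein of the ubiquitin ligase complex that exports misfolded proteins, had 58.2, 51.9 and 49.1 CPM in Trp, 51.4, 54.9 and 49.7 CPM in IPA and 39.7, 38.8 and 47.5 CPM in HFD. Every Trp and IPA value exceeded HFD 3, the highest HFD library. The log2 fold change was 0.34 in Trp (SE 0.10, 95% interval 0.12 to 0.56, adjusted p = 0.236) and 0.31 in IPA (SE 0.10, 95% interval 0.09 to 0.53, adjusted p = 0.349). Without HFD 3 it was 0.44 in Trp, with an adjusted p of 0.041 in edgeR's quasi-likelihood test. Sel1l, the scaffold of that complex, had 114 to 121 CPM in Trp, 111 to 129.8 CPM in IPA and 98.4 to 118 CPM in HFD, and Edem1, which marks glycoproteins for export, had 10.2 to 13.8 CPM over the 9 libraries. For both genes the groups overlapped.

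In the cytosolic class, the regulator Hsf1 and the small heat shock protein gene Cryab had the smallest p in Trp. Hsf1, the master factor of the heat shock response, had 21.5, 21.9 and 25 CPM in Trp, 17.1, 23.1 and 22.3 CPM in IPA and 20.3, 18.3 and 16 CPM in HFD. The Trp values stood above HFD and the IPA values overlapped them, with log2 fold changes of 0.32 in Trp (SE 0.13, adjusted p = 0.373) and 0.20 in IPA (SE 0.13, adjusted p = 0.625). Cryab, abundant in oligodendrocytes and astrocytes, had 127, 140.4 and 161 CPM in Trp, 125, 146 and 134 CPM in IPA and 100.5, 106 and 136 CPM in HFD. HFD 3 overlapped both other groups. The log2 fold change of Cryab in Trp was 0.33 (SE 0.12, adjusted p = 0.339), and without HFD 3 it was 0.47, with an adjusted p of 0.04 in edgeR's quasi-likelihood test.

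The HSP70 and HSP90 genes had small fold changes, with and without overlap between groups. Hspa1a, the inducible HSP70, had 8.16, 9.51 and 9.19 CPM in Trp, 8.88, 11.6 and 8.23 CPM in IPA and 7.73, 7.04 and 7.77 CPM in HFD. Both supplemented groups stood above HFD, with log2 fold changes of 0.25 in Trp (95% interval -0.07 to 0.57, adjusted p = 0.561) and 0.35 in IPA (95% interval 0.03 to 0.67, adjusted p = 0.456). Hspa1b had 7.25, 7.64 and 7.56 CPM in Trp, 6.78, 9.44 and 7.64 CPM in IPA and 6.77, 5.41 and 6.96 CPM in HFD. The genes are near-identical copies, so reads may be split between them and the values of each are uncertain. Only their promoter windows were compared here, with 296 of 300 bases the same (98.7%), and not the transcribed sequences. Hspa8 had 2121, 2236 and 2668 CPM in Trp, 1805, 2296 and 2315 CPM in IPA and 1888, 2044 and 2104 CPM in HFD. Trp stood above HFD for Hspa8 by a narrow margin, with a log2 fold change of 0.22 (95% interval -0.04 to 0.47, adjusted p = 0.528), and the IPA value was 0.09 (95% interval -0.17 to 0.34, adjusted p = 0.832).

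Hsp90aa1, the inducible cytosolic HSP90, had 1573, 1432 and 1663 CPM in Trp, 1457, 1434 and 1532 CPM in IPA and 1314, 1367 and 1671 CPM in HFD. HFD 3 was the highest of all libraries for this gene, and its log2 fold changes were 0.10 in Trp (95% interval -0.12 to 0.33, adjusted p = 0.778) and 0.02 in IPA (95% interval -0.20 to 0.25, adjusted p = 0.958). Hsp90ab1, the constitutive form, had 1173, 1231 and 1253 CPM in Trp, 1020.5, 1244 and 1269 CPM in IPA and 1146, 1139 and 1047 CPM in HFD, and its Trp libraries stood above HFD. The exchange factors of HSP70 overlapped between groups, with Hsph1 from 297 to 433 CPM and Hspa4l from 142 to 205 CPM. So did the J-domain cochaperones Dnaja1, from 314 to 410.4 CPM, and Dnajb1, from 52.4 to 67.0 CPM.

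The remaining cytosolic members were Bag3, a cochaperone of selective autophagy, with 5.57 to 8.11 CPM, Chordc1, an HSP90 cochaperone, with 60.9 to 86.6 CPM, and Hspb1, a small heat shock protein gene, with 2.55 to 5.55 CPM. Hspb1 had the largest spread of any member, an SD of 0.41 on the log2 scale. In the mitochondrial pair, Hspd1 had 185, 179.8 and 180.4 CPM in Trp, 173, 183 and 193 CPM in IPA and 149, 166 and 195 CPM in HFD. Hspe1 had 57.8, 51.4 and 57.1 CPM in Trp, 51.6, 50.2 and 54.6 CPM in IPA and 50.9, 47.1 and 61.2 CPM in HFD. HFD 3 was the highest library for both, and the groups overlapped. These genes overlap by 112 bases on opposite strands in the table, and with no strand setting stated the reads in that stretch cannot be assigned.

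No member passed in the direct comparison of Trp with IPA hippocampi. In edgeR's quasi-likelihood test 0 of 41 members and 0 of all genes (0.0%) passed, with 0 members (2 without IPA 1) and 840 genes (4.49%, or 2.43% for higher values alone) at an unadjusted p under 0.05, while DESeq2 called 15 genes. Groups without overlap were seen for 0 members, against 5.61% of all genes with Trp above IPA and 5.55% with Trp below it. The log2 fold change of Trp against IPA was -0.04 for Hspa5 (95% interval -0.40 to 0.32, adjusted p = 0.992) and 0.10 for Hsp90b1 (95% interval -0.15 to 0.35, adjusted p = 0.987). It was 0.13 for Hspa8 (95% interval -0.13 to 0.39, adjusted p = 0.987) and -0.01 for Ddit3 (95% interval -0.23 to 0.21, adjusted p = 0.998). The mean was higher in Trp for 11 of 25 ER and 9 of 16 other members, where 51.9% of all genes were, with medians of -0.02 and 0.03. On the FPKM scale, where Ern1 and Trib3 were too low to be tested, the counts were 20 of 23 and 15 of 16, with medians of 0.07 and 0.11. The share and the median of all genes on that scale are not given here. These FPKM counts therefore do not show a difference between the groups that is particular to the members. The Hspa5 interval reaches -0.40, so the Trp and IPA groups are not shown to be alike.

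Many members were low or high in the same libraries. HFD 1 was the lowest of the 9 libraries for 21 of 41 members, 13 of them ER genes, where it was lowest for 2574 of 18690 genes. It lay above the gene's own mean for 1 of 41 members, where it did for 9621 of 18690 genes. HFD 3 lay above the mean for 20 of 41 members, among them 10 of the 16 cytosolic and mitochondrial ones, where it did for 9564 of 18690 genes. It was the highest library for 4 of those 16 members, where it was highest for 3349 of 18690 genes. IPA 1 lay above the mean for 12 of 41 members, against 9064 of 18690 genes, and was the lowest IPA library for 19 of 25 ER genes. The share of all genes for which IPA 1 was the lowest IPA library is not given here. IPA 2 and IPA 3 were each the highest library for 11 members, where they were highest for 1210 and 2284 of 18690 genes. The 3 HFD mice thus differed among themselves, with a median deviation from the gene means of -0.23, -0.10 and -0.03 (log2) over ER members and of -0.22, -0.14 and 0.08 over the others.

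**Figure D4:**
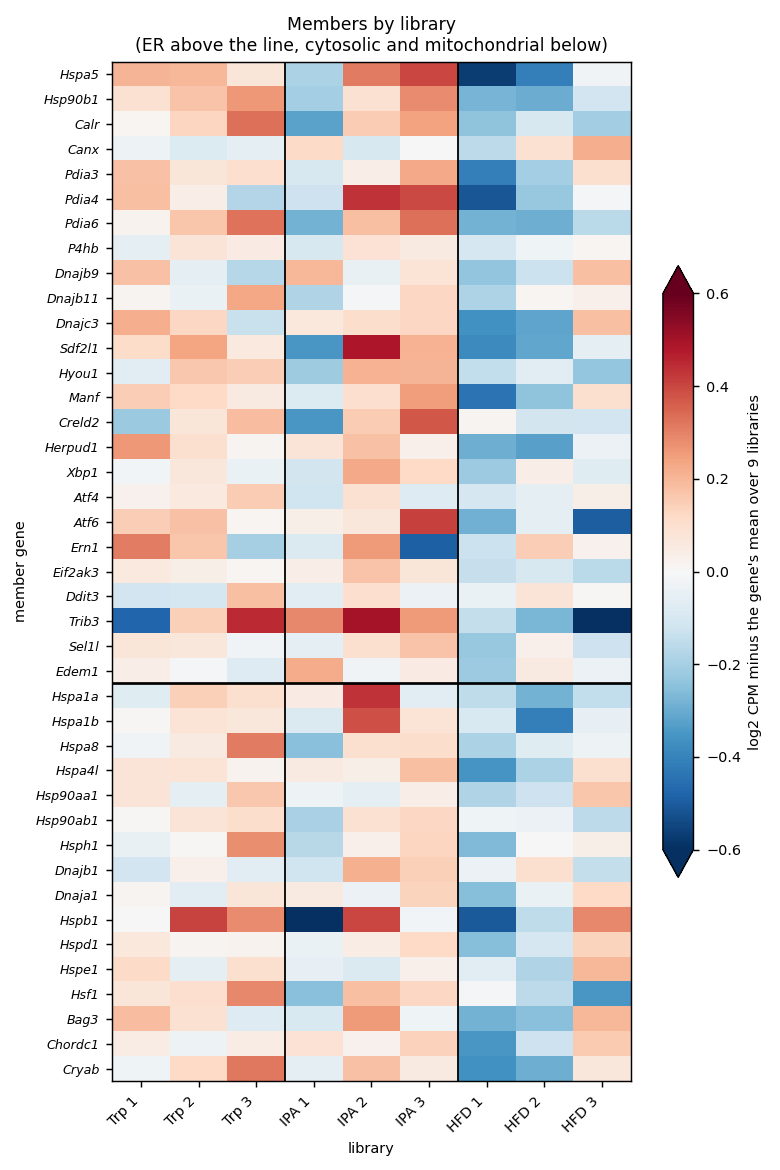
Log2 CPM of each member minus its mean over the 9 libraries, with Trp, IPA and HFD libraries from left to right, ER members above the horizontal line and the other members below it; 2 values lie beyond the colour scale. HFD 1 is blue for nearly every row, HFD 3 is mixed below the line, and IPA 1 is blue for most ER rows.

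The class medians were sensitive to HFD 1 and HFD 3. In Trp against HFD the ER median was 0.14 without HFD 1 and 0.19 without HFD 3, and the median of the other members was 0.09 without HFD 1 and 0.25 without HFD 3. In IPA against HFD the ER median was 0.16 without HFD 1 and 0.29 without IPA 1, and the median of the other members was 0.06 without HFD 1 and 0.21 without HFD 3. The medians stayed above 0 in every one of these fits. With HFD 1 left out, 21 of 25 ER and 13 of 16 other members still had a higher mean in Trp, and 20 and 12 in IPA.

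**Figure D5:**
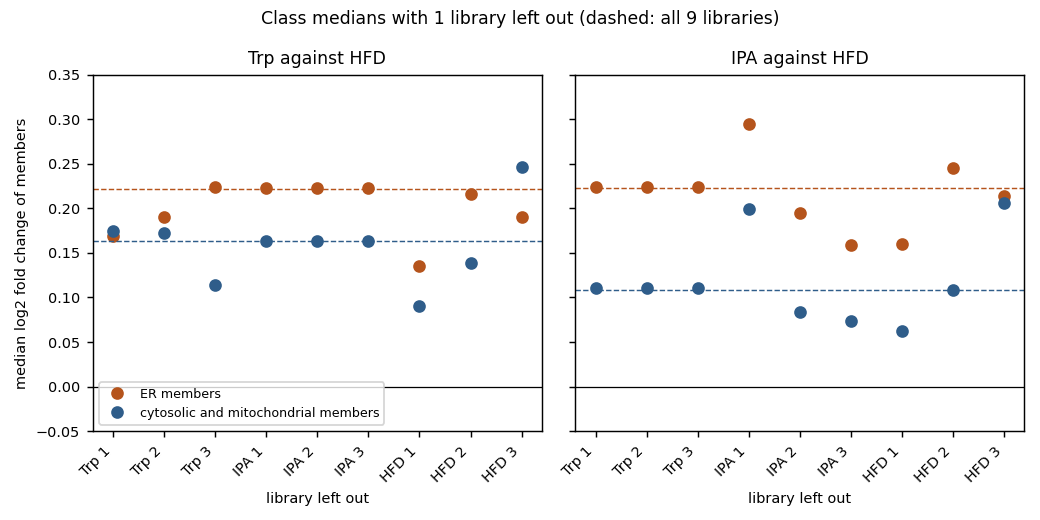
Median log2 fold change of the 25 ER members and of the 16 cytosolic and mitochondrial members when 1 library is left out, in Trp against HFD (left) and IPA against HFD (right); dashed lines give the medians with all 9 libraries. All points lie above 0, the lowest Trp points are those without HFD 1 (0.14 and 0.09), and the class order in Trp is reversed without HFD 3 and without Trp 1.

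Members with the longer ER element in their promoter window had a median log2 fold change of 0.34 in Trp against HFD (7 genes, -0.11 to 0.47). The 15 ER members with a window but no match to the longer element had one of 0.12 (-0.02 to 0.48), so the ranges overlapped. Herpud1 and Dnajb11, which hold the shorter ER element, are among those 15. In IPA against HFD these medians were 0.24 (-0.05 to 0.51) and 0.17 (-0.10 to 0.76). Of the genes whose sequences are printed above, Hspa5, Hsp90b1, Calr, Pdia6 and Herpud1 had separate Trp and HFD groups, whereas Canx, Dnajc3, Creld2 and Hspd1 did not. Of these genes only Herpud1 had separate IPA and HFD groups. For the heat shock element the cytosolic medians in Trp were 0.10 for the 4 genes with a match and 0.20 for the 7 without. Hspd1 and Hspe1, both among the 4, share 1 promoter. Only the exact pattern was searched, so genes without a match may hold variants of the element. The ER members Hyou1, Manf and Atf6 and the other members Hspa8, Hsp90aa1, Hsp90ab1, Hsf1 and Cryab had no window and are in neither set. These medians are descriptions of few genes, and no test was made.

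Wider lists of the same pathways had medians near 0, and no gene on them passed in edgeR's quasi-likelihood test. Among 35 other ER folding and degradation genes, 24 had a higher mean in Trp with a median log2 fold change of 0.04, and 22 in IPA with a median of 0.01. Those with the smallest p in Trp were Derl3, a degradation factor (0.61, adjusted p = 0.513), Mbtps1, the protease that first cleaves ATF6 (0.21, adjusted p = 0.514), and Ppib, an ER cyclophilin (-0.16, adjusted p = 0.595). In IPA they were Ppib (-0.31, adjusted p = 0.332), the J-domain gene Dnajc1 (0.24, adjusted p = 0.463) and Mbtps1 (0.24, adjusted p = 0.485). These medians lay below the 0.22 of the ER members in both comparisons, and the difference between the lists was not tested.

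Among 28 genes downstream of ATF4, 16 had a higher mean in Trp (median 0.01) and 14 in IPA (median -0.01). The smallest p in Trp belonged to Vldlr (-0.29, adjusted p = 0.213), the stress-induced inhibitor of mTORC1 Ddit4 (0.36) and the cysteine synthesis enzyme Cth (0.56). In IPA they belonged to Ddit4 (0.30), Cebpb (-0.48) and the cystine transporter gene Slc7a11 (-0.43). Among 43 other cytosolic and mitochondrial chaperones and cochaperones, 26 had a higher mean in Trp (median 0.05) and 27 in IPA (median 0.04). There the smallest p in Trp was that of Stip1, which links HSP70 to HSP90 (0.36, adjusted p = 0.218), followed by Hspa12a (-0.21) and Bag2 (-0.37). In IPA it was that of Dnajb4 (0.37, adjusted p = 0.332), followed by Hspa12a (-0.21) and Dnajc7 (0.23).

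The libraries held 40621084 to 50938746 counts, and HFD 3 stood apart on the first principal component (22.2% of the variance). Hippocampal markers were present in every library, with 10.3 to 42.3 CPM of the dentate gene Prox1 and 57.7 to 113 CPM of the pyramidal cell gene Neurod6, but most were lower on average in the supplemented groups. Of 8 dentate granule cell markers 7 were lower in both Trp and IPA (median log2 fold changes -0.34 and -0.70), with sums of 139 to 207 CPM in Trp, 162 to 187 CPM in IPA and 168 to 213 CPM in HFD. Of 8 CA pyramidal cell markers 6 were lower in both (medians -0.11 and -0.32), and their sums, 430.3 to 482.98 CPM in Trp, 412 to 475 CPM in IPA and 483.38 to 536 CPM in HFD, did not overlap HFD. All 6 oligodendrocyte markers were lower in both groups, 5 (Trp) and 6 (IPA) of 6 thalamus and habenula markers were lower, and all 5 ependyma markers were higher. Markers of tissue outside the hippocampus also differed on average between the groups. Summed over 10 striatal neuron markers, all 10 higher on average in both supplemented groups, the level was 1641 to 2346 CPM in Trp, 2315 to 3123 CPM in IPA and 705 to 2320 CPM in HFD. The 10 choroid plexus markers, likewise all higher, summed to 39.0 to 1446 CPM in Trp, 307 to 1212 CPM in IPA and 139 to 722 CPM in HFD. The 5 blood cell markers, all lower, summed to 233 to 383 CPM in Trp, 248 to 399 CPM in IPA and 571 to 2212 CPM in HFD. The 8 microglial markers summed to 347 to 445 CPM in Trp, 247 to 266 CPM in IPA and 227 to 247 CPM in HFD, and Ctss among them had a log2 fold change of 1.1 in Trp against HFD (adjusted p = 0.0049). The 8 immediate early genes, lower on average in both groups and with Fos and Egr1 past the threshold in Trp, summed to 287 to 334 CPM in Trp, 290.4 to 456 CPM in IPA and 390.3 to 683 CPM in HFD, and 9 glucocorticoid-induced genes summed to 659 to 904 CPM, 617 to 760 CPM and 411 to 646 CPM in the same order. No marker on these lists was at 0 in every library, and the part of these differences in the members' values was not tested.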

How the data were processed

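Hippocampal RNA of 9 mice (3 Trp, 3 IPA, 3 HFD) was sequenced as oligo(dT)-selected libraries with no strand marking described, per the labels' protocols. The authors deposited 1 table with raw counts and FPKM per gene and library, per the file headers, and other columns with the log2 fold change, p-value and q-value of their own comparisons with HFD, whose test is not stated. StringTie 2.1.3b and mm10 are named in the submitters' processing notes. For the aligner, counter, annotation and strand setting, nothing is given in the sources used here. The table's gene coordinates do not lie at the starts of the mm10 annotation used here, so none is printed.

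Counts were analysed with edgeR 4.0.16 in R 4.3.3: filterByExpr (minimum count 10) left 18690 genes, TMM scaling, and a robust quasi-likelihood fit with 1 mean per group over 9 libraries. Tests were two-sided with Benjamini-Hochberg adjustment over all genes. CPM are the deposited counts on TMM-adjusted library sizes. Standard errors and 95% intervals follow from the F statistic. Library totals were 40621084 to 50938746 counts. The p-values weigh each group difference against the spread between the libraries of these mice within groups.

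Levels were given for every member, and fold changes for members at an unadjusted p under 0.05 plus Hspa5, Hsp90b1, Xbp1, Atf4, Ddit3, Hspa1a, Hspa8, Hsp90aa1 and Hsf1; of other lists, called genes or the 3 with the smallest p were named. The members and lists were chosen with earlier results of these data known. Alternatives were DESeq2 1.42.0, RLE and upper quartile scaling, no filter, mean FPKM of at least 5, limma-trend 3.58.1 on log2 FPKM with pseudocounts of 0.1, 0.5 and 1, 6 libraries only, a replicate block, leaving out each library, and adjusted p under 0.01 and 0.1. The main edgeR fit was tested on simulated counts for Trp against HFD, and the alternatives were not. Promoter windows are RefSeq's, on GRCm38.p6, matched by symbol. Figures used matplotlib 3.10.9 in Python 3.11.15.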

Additional observations from a re-analysis of the deposited data

How the results depend on the processing

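No member passed in any comparison under most settings; the exceptions, both in Trp against HFD, were DESeq2 with 1 member (Hsp90b1) and the fit without HFD 3 with 2 (Herpud1 and Cryab), so the range over libraries left out was 0 to 2. Genes called in Trp against HFD numbered 64 in edgeR, 309 with DESeq2, 97 without a filter, 30 at a mean FPKM of at least 5, 8 with 6 libraries, 12 at an adjusted p under 0.01 and 119 under 0.1, and 13 (without Trp 2) to 323 (without HFD 3) with 1 library left out. The split was 40 higher and 24 lower in edgeR, and 54 and 6 on log2(FPKM + 0.5). Members at an unadjusted p under 0.05 numbered 17 of 39 tested on each FPKM scale in Trp against HFD and 5 of 39 in IPA against HFD, against 10 of 41 in edgeR for each. Over all genes, 1983 to 1992 of 13518 were past that p on the FPKM scales in Trp and 1346 to 1357 in IPA. In edgeR 2112 and 1946 of 18690 were. In IPA against HFD the 1 gene called became 168 with DESeq2, 6 without a filter, 0 at a mean FPKM of at least 5, 2 with 6 libraries, 0 under 0.01, 2 under 0.1 and 0 to 52 with 1 library left out (52 without HFD 3). In Trp against IPA, where 0 were called, DESeq2 called 15, log2 FPKM 2 at each pseudocount, no filter 3, and leaving out 1 library 0 to 1.

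Positive members in Trp against IPA numbered 20 of the 23 ER members tested at each FPKM pseudocount, and 15, 15 and 14 of 16 others, with 4 to 15 and 7 to 11 over libraries left out. The share of all genes on the FPKM scale is not given beside these counts. Directions turned for members near 0. In Trp against HFD Ddit3 was 0.051, 0.050 and 0.049 at FPKM pseudocounts of 0.1, 0.5 and 1, and -0.13 to 0.030 over libraries left out. In IPA against HFD Atf4 was -0.011 with upper quartile scaling, and libraries left out gave -0.057 to 0.052 for Atf4, -0.043 to 0.14 for Hsp90aa1 and -0.065 to 0.021 for Ddit3. In Trp against IPA the FPKM values at these pseudocounts were 0.064, 0.064 and 0.064 for Hspa5, 0.019, 0.019 and 0.018 for Xbp1 and 0.067, 0.067 and 0.066 for Ddit3, and those of Hspa1a were 0.0026 and 0.00095 at 0.1 and 0.5. Ddit3 was 0.0030 without a filter and 0.010 with upper quartile scaling, and libraries left out gave -0.20 to 0.078 for Hspa5, -0.017 to 0.22 for Hsp90b1, -0.11 to 0.043 for Ddit3 and -0.20 to 0.066 for Hspa1a. The cause of these turns was not tested. Of all settings run for named members, 814 kept direction and side of the threshold, 36 turned and 3 came past it.

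With the replicate number as a block, 23 genes were called in Trp against HFD and 0 in IPA against HFD, and no member call changed. The numbers do not pair the mice: same-numbered libraries correlated at -0.196 to 0.048 over 9 pairs, and 1 of 18 comparisons had the same number as best partner. The counts of members with a higher mean were added after seeing the data. Depth limits Trib3, at 16 to 46 counts.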
